A study of Mus musculus with 16 samples.

Results

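The genes described here are 10 genes of natural killer (NK) cells and of the cytokine axis that sustains them: the receptor genes Ncr1, Klrk1, Klrb1c, Klrd1 and Klre1, the T-box transcription factor genes Eomes and Tbx21, the cytokine gene Il15 and its receptor gene Il15ra, and Ulbp1, which encodes a ligand on target cells. They were chosen by name among the 22298 genes counted, and all 10 passed the minimum of 10 counts over the 16 tumors. The tumors grew in 6-week-old mice of the strain syngeneic to the tumor line after 500000 MFC cells (a mouse forestomach carcinoma line, wild type per the labels) had been injected into the abdominal cavity. The 8 tumors of the vehicle group came from mice given PBS, and the 8 of the IL-33 treatment group from mice given IL-33 at 20 μg/kg every 2 days, each by injection into the abdominal cavity. The methods list fewer mice per group for this tumor model than the 8 tumors sequenced, and only tumors with RNA of high quality entered. No source used here states that each tumor came from its own mouse, so p-values measure the spread between these tumors. The comparison asks whether transcripts of NK cells and of the IL-15 axis differed between the groups in bulk tumor RNA.

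NK cells are cytotoxic lymphocytes that kill without prior antigen contact, by weighing signals from activating and inhibitory receptors. IL-15, presented in trans on IL-15 receptor alpha by myeloid and stromal cells, signals through the beta and common gamma chains on NK cells and is needed for their survival. Eomes and T-bet direct their maturation, and the receptor NKG2D, the product of Klrk1, binds stress-induced ligands such as the product of Ulbp1 on tumor cells. Many of these genes are shared with CD8+ T cells and other innate lymphoid cells, so a bulk sample does not assign their RNA to NK cells. Fewer cells of a type and less RNA per cell cannot be told apart in such samples.

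Depth ranged from 14139268 to 24290794 counts for vehicle tumors, and for IL-33 tumors from 16569613 to 24288893. A pair of tumors stood apart. In vehicle replicate 4, genes with over 6000 exon bases lay below those with under 1500, relative to the other tumors, by a difference of medians of -2.28 on the log2 scale, against -0.85 to 0.26 in the other 15 tumors. IL-33 replicate 7 held a summed level of 1860 CPM (counts scaled to 1e+06 per tumor) over 18 genes of the female reproductive tract, against at most 28.3 CPM elsewhere, so results are given with and without it. Of the epithelial markers Krt8, Krt18, Epcam and Cdh1, picked after the values had been seen, Krt8 was at least 181 CPM in each tumor. Epcam was 98.8 CPM in IL-33 replicate 7 and did not pass 2.40 CPM in the other 15. Krt18 was likewise 159 CPM there and at most 1.83 CPM elsewhere, so little Epcam and Krt18 RNA was found in 15 of the 16 tumors labelled as gastric cancer.

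None of the 10 genes differed between the groups in edgeR's quasi-likelihood test with Benjamini-Hochberg adjustment over the 16817 genes tested. At an adjusted p under 0.05 the test called 0 of the 10 genes and 0 genes in all, or 0.0% of those tested, and DESeq2 also called 0. At an unadjusted p under 0.05 edgeR called 0 of the 10 genes, against 1876 of all genes tested (11.2%). With IL-33 replicate 7 left out it called 1 of the 10, Klrb1c, as higher, against 651 of 15803 genes (4.12%), of which 1.83% were higher and 2.29% lower, and again 0 at an adjusted p. DESeq2 called 1 of the 10 at an unadjusted p under 0.05, again Klrb1c as higher, against 4.11% of all genes, 2.52% higher and 1.59% lower. The fitted change was above 0 for 8 of the 10 genes, with a median of 0.21 on the log2 scale, beside 0.06 over all genes tested. The values of the groups overlapped for each of the 10 genes, as for every gene tested (0.0% without overlap).

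**Figure D1:**
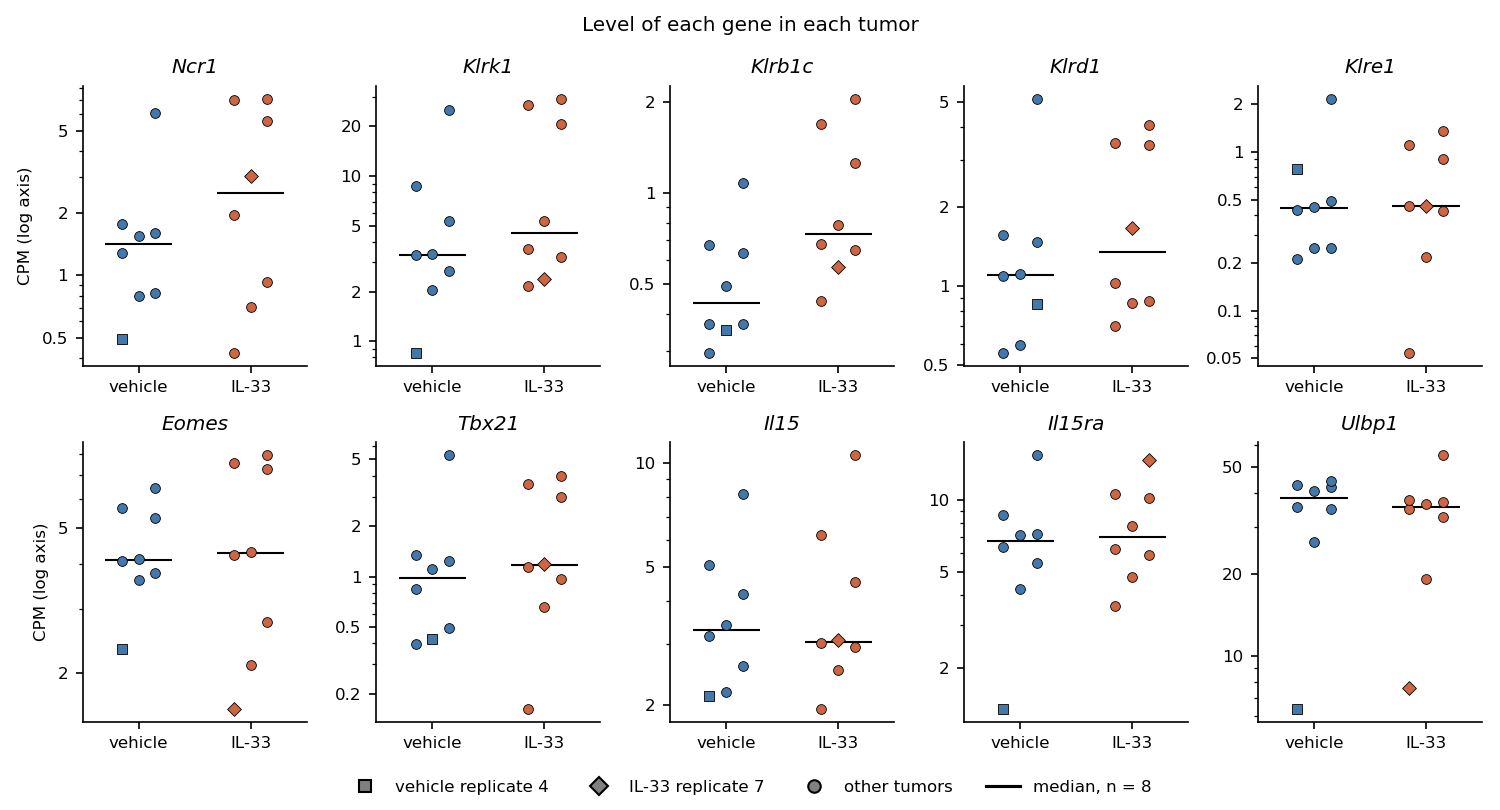
Level of each of the 10 genes in each tumor, as CPM on a log axis, in the vehicle and IL-33 treatment groups (1 point per tumor, line at the median of 8 tumors). In the receptor and T-box panels 1 vehicle tumor and 3 IL-33 tumors lie above the rest, and vehicle replicate 4 (square) and IL-33 replicate 7 (diamond) are the lowest for Ulbp1.

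Ncr1 (ENSMUSG00000062524, chromosome 7:4337724-4345164, plus strand, GRCm38) encodes NKp46, an activating receptor that marks NK cells and some innate lymphoid cells. Its level ran from 0.50 to 6.12 CPM with a median of 1.42 CPM in the vehicle tumors, and from 0.42 to 7.13 CPM with a median of 2.49 CPM in the IL-33 tumors. Vehicle replicate 7, at 6.12 CPM, lay among the highest IL-33 tumors, and the other vehicle tumors were at most at 1.78 CPM. Of the IL-33 tumors, replicates 3, 4 and 8 held 6.99, 7.13 and 5.56 CPM, and the others at most 3.02 CPM. The fitted log2 fold change was 0.80 ± 0.60 (SE, n = 8 and 8, adjusted p = 0.666 in edgeR).

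Klrk1 (ENSMUSG00000030149, chromosome 6:129610323-129623864, minus strand) encodes the activating receptor NKG2D of NK cells and CD8+ T cells. It was the most abundant of the 5 receptor genes in CPM, from 0.85 to 25.3 CPM (median 3.35 CPM) in the vehicle tumors and from 2.16 to 29.5 CPM (median 4.51 CPM) in the IL-33 tumors. As for Ncr1, vehicle replicate 7 and IL-33 replicates 3, 4 and 8 held at least 20.8 CPM, and no other tumor held more than 8.71 CPM. The log2 fold change was 0.83 ± 0.69 (SE, n = 8 and 8, adjusted p = 0.709 in edgeR), with a 95% interval from -0.61 to 2.28.

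The promoters of these genes are shown because the same 4 tumors held the highest levels of both, as described further on. Each line is the 250 bases before the start of transcription in RefSeq (GRCm38.p6), read 5′ to 3′ on the strand of the gene, with matches to the core letters of the Runx motif (TGTGGT on either strand, ACCACA where read on the other) in capitals. Both windows lie outside annotated exons, and that of Ncr1 belongs to the second of its 2 start sites.
Ncr1, chr7:4337474-4337723, plus strand: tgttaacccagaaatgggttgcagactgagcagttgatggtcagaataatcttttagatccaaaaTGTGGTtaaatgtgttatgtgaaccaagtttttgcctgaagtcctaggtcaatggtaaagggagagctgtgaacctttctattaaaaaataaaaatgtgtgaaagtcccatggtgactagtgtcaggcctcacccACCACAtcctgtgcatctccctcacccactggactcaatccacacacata
Klrk1, chr6:129623865-129624114, minus strand: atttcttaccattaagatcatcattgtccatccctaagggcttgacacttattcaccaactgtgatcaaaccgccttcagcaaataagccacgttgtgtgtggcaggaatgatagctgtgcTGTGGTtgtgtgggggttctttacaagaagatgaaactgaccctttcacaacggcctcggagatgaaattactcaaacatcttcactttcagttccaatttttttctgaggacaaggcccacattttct
The Ncr1 window held matches that begin 185 and 50 bases before the start, and the Klrk1 window a match 129 bases before it. RefSeq promoters were found for 8 of the 10 genes, and a match lay in a window of 4 of them (Ncr1, Klrk1, Klrb1c and Klre1), against 4614 of all 32851 promoter windows of the same length. The T-box letters AGGTGT were in 1 of the 8 (Il15ra, 11.8% of all promoters), AGGAAG of the Ets family in 5 (29.5%), the NF-kB pattern, GGGA and CC 4 bases apart, in 0 (17.6%), and the interferon response pattern, GAAA and GAAA 2 bases apart, in 1 (Eomes, 2.98%). Both strands were searched, and no match overlapped one of another motif. A gene with several start sites (Ncr1, Klre1 and Il15ra have 2) was counted if any of its windows held a match, and both windows of Klre1 lie within annotated exons. A match of letters is a description and not a binding site.

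Klrb1c (ENSMUSG00000030325, chromosome 6:128778485-128789215, minus strand) encodes the receptor NKR-P1C, the NK1.1 antigen of the mouse strains that carry it. It was a low transcript, at 0.30 to 1.09 CPM (median 0.43 CPM) in the vehicle tumors and 0.44 to 2.06 CPM (median 0.73 CPM) in the IL-33 tumors, on 75 and 160 reads in all. IL-33 replicates 3, 4 and 8 lay above every vehicle tumor. Above the vehicle mean of 0.54 CPM lay 7 of the 8 IL-33 tumors and 3 of the 8 vehicle tumors. Its log2 fold change of 0.83 ± 0.43 (SE, n = 8 and 8) had the smallest p of the 10 genes (adjusted p = 0.491 in edgeR). In the fit that left out IL-33 replicate 7 it was 0.96 ± 0.37, past an unadjusted p of 0.05 but not the adjustment (adjusted p = 0.964 in edgeR). In an exact permutation test of the mean log2(CPM + 0.5) over all divisions of the 16 tumors into 8 and 8, two-sided, the IL-33 tumors were 0.50 higher (p = 0.039, not adjusted for the 10 genes). Klrb1c shares 413 exon bases with Gm44511 on the same strand, which had 113 reads in all, so reads of that stretch could be split or lost.

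Klrd1 (ENSMUSG00000030165, chromosome 6:129591782-129598775, plus strand) encodes CD94, which pairs with NKG2 chains into receptors for the class I molecule Qa-1. Its level ran from 0.56 to 5.15 CPM (median 1.10 CPM) in the vehicle tumors and from 0.70 to 4.09 CPM (median 1.34 CPM) in the IL-33 tumors. Without IL-33 replicate 7 the median of the IL-33 tumors was 1.03 CPM, below that of the vehicle tumors. The highest value of the 16 was that of vehicle replicate 7, and the vehicle range enclosed the IL-33 range. The log2 fold change was 0.30 ± 0.51 (SE, n = 8 and 8, adjusted p = 0.895 in edgeR). Klre1 (ENSMUSG00000050241, chromosome 6:129577905-129585827, plus strand) encodes a lectin-like receptor of NK cells and lies next to Klrd1. It held 0.21 to 2.17 CPM (median 0.44 CPM) in the vehicle tumors and 0.05 to 1.37 CPM (median 0.46 CPM) in the IL-33 tumors. The lowest value was 1 read in IL-33 replicate 6, for which counting error alone allows 0.0014 to 0.30 CPM (exact 95% binomial interval). Its fitted log2 change of -0.16 ± 0.63 (SE, n = 8 and 8, adjusted p = 0.964 in edgeR) was far inside its own error, and turned to 0.36 without vehicle replicate 7.

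Of the T-box genes, Eomes (ENSMUSG00000032446, chromosome 9:118478212-118486132, plus strand) encodes a factor needed for mature NK cells that effector and memory CD8+ T cells also use. It ran from 2.33 to 6.46 CPM (median 4.09 CPM) in the vehicle tumors and from 1.60 to 7.95 CPM (median 4.27 CPM) in the IL-33 tumors. The lowest tumor of each group was the one that stood apart, vehicle replicate 4 and IL-33 replicate 7, and the IL-33 range enclosed the vehicle range. The log2 fold change was 0.03 ± 0.33 (SE, n = 8 and 8, adjusted p = 0.989 in edgeR), with an interval from -0.66 to 0.72. Its mean in the vehicle tumors was 4.42 ± 1.32 CPM (SD, n = 8). Tbx21 (ENSMUSG00000001444, chromosome 11:97098071-97115331, minus strand) encodes T-bet, the factor of type 1 lymphocytes. It ran from 0.40 to 5.32 CPM (median 0.98 CPM) in the vehicle tumors and from 0.16 to 3.97 CPM (median 1.17 CPM) in the IL-33 tumors. Vehicle replicate 7 again held the highest value, and the log2 fold change was 0.33 ± 0.62 (SE, n = 8 and 8, adjusted p = 0.908 in edgeR).

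**Figure D2:**
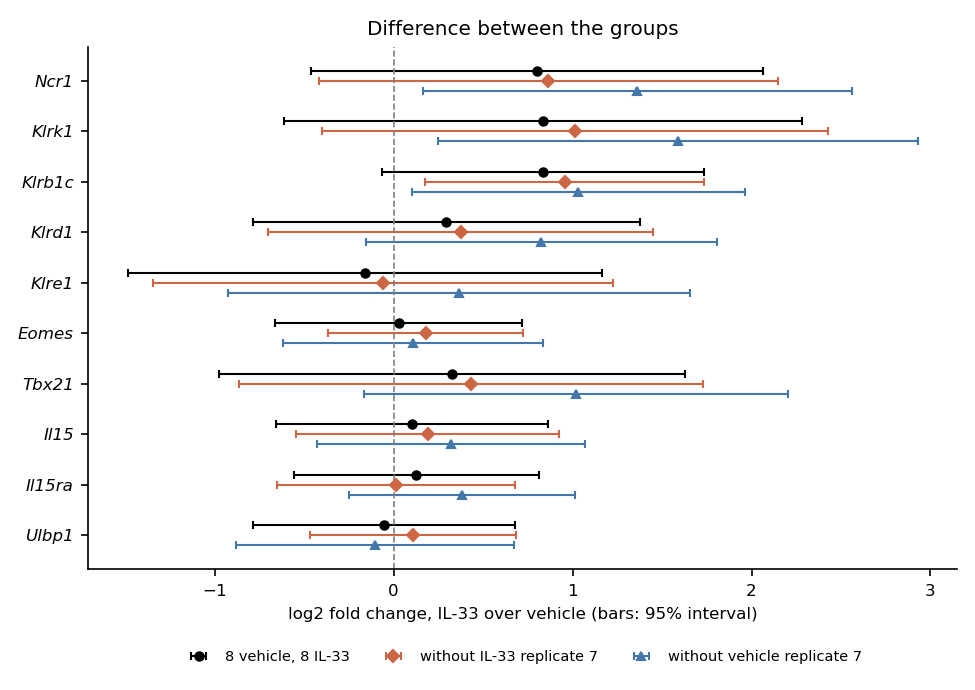
Log2 fold change of each gene between the IL-33 treatment and vehicle groups in edgeR, with its 95% interval, over all 16 tumors (circles), without IL-33 replicate 7 (diamonds) and without vehicle replicate 7 (triangles). Over all tumors every interval crosses 0, without IL-33 replicate 7 that of Klrb1c does not, and without vehicle replicate 7 those of Ncr1, Klrk1 and Klrb1c do not. Vehicle replicate 7 is the highest vehicle tumor for Ncr1, Klrk1 and Klrb1c, so leaving it out raises their changes by construction.

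The size of these differences moved with single tumors of both groups. Vehicle replicate 7 was the highest vehicle tumor for each receptor and T-box gene. Leaving it out therefore raises their changes by construction, and that fit is a description. Without vehicle replicate 7 the log2 fold change was 1.36 ± 0.57 for Ncr1, 1.59 ± 0.63 for Klrk1 and 1.03 ± 0.44 for Klrb1c (SE). These 3 of the 10 genes then passed an unadjusted p of 0.05, all higher, where 1913 of the 16764 genes tested in that fit did so (11.4%), 10.1% higher and 1.34% lower. None of the 3 passed the adjustment (adjusted p = 0.437 each in edgeR), and 0 of all genes did. Tbx21 then stood at 1.02 ± 0.56 and Klrd1 at 0.83 ± 0.46, and neither passed an unadjusted p of 0.05. On the side of IL-33, leaving out replicate 3 gave the lowest fits for Ncr1 (0.54), Klrk1 (0.47) and Klre1 (-0.44), and leaving out replicate 4 those for Klrd1 (0.10), Tbx21 (0.09) and Eomes (-0.09). The lowest fit for Klrb1c (0.62) came without IL-33 replicate 8. Leaving out IL-33 replicate 7 moved the fits to 0.87 for Ncr1, 1.01 for Klrk1, 0.38 for Klrd1, 0.43 for Tbx21 and 0.18 for Eomes, all with an adjusted p of 0.964 in edgeR.

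For all 7 receptor and T-box genes the same 4 tumors held the highest levels: vehicle replicate 7 and IL-33 replicates 3, 4 and 8. Among all 16817 genes tested, 509 (3.03%) had these 4 tumors at the top. The step from the fourth tumor to the fifth was 2.38-fold for Klrk1, 2.23-fold for Tbx21, 2.08-fold for Klrd1 and 1.84-fold for Ncr1, but only 1.16-fold for Klre1 and 1.14-fold for Eomes. The 4 tumors were found from these values, so their height is a description. They are 1 of 8 vehicle tumors and 3 of 8 IL-33 tumors, and within the 4 the vehicle tumor was the highest for Klrd1, Klre1 and Tbx21. The difference of long and short genes was -0.58 for vehicle replicate 7 and -0.85 for IL-33 replicate 3, the next lowest after vehicle replicate 4, but 0.20 and 0.11 for IL-33 replicates 4 and 8, and its part in these levels was not tested.

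**Figure D3:**
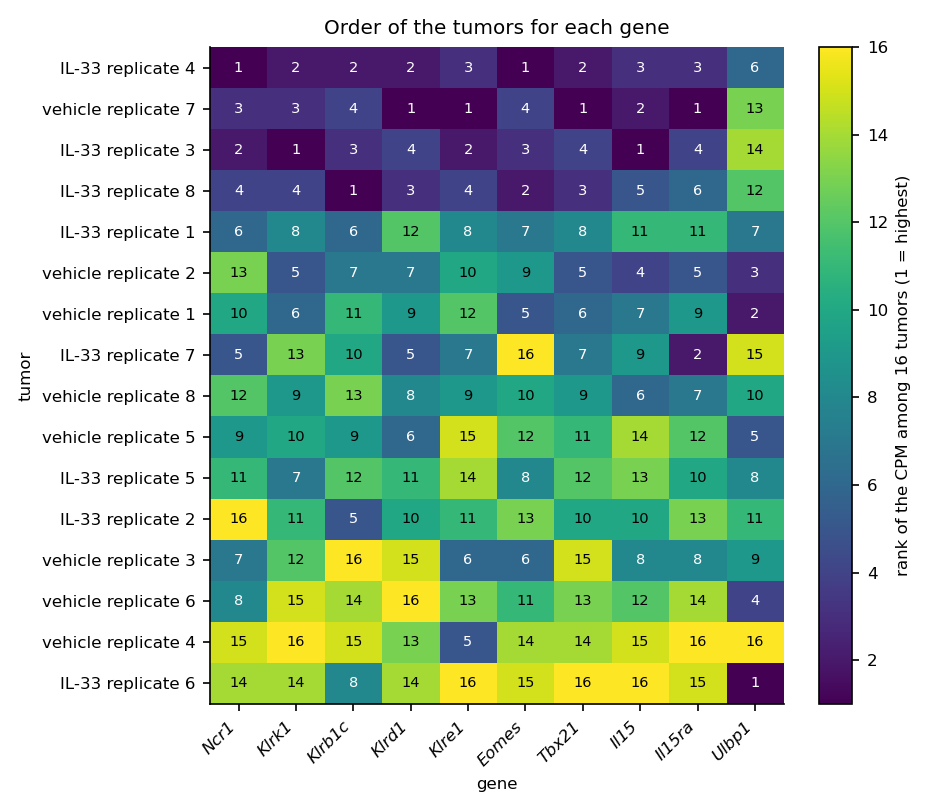
Rank of each tumor by CPM for each of the 10 genes (1 is the highest of 16, dark), with tumors ordered by their mean rank over the receptor and T-box genes. IL-33 replicates 3, 4 and 8 and vehicle replicate 7 hold ranks 1 to 4 in the first 7 columns, while for Ulbp1 they rank between 6 and 14.

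Transcripts of T cells were highest in the same tumors. Of the 11 T cell markers, 9 had these 4 tumors at the top (81.8%, against 3.03% of all genes), and the list's summed level was 63.2 to 98.0 CPM there and at most 32.6 CPM in the other 12. Cd3e, a subunit of the T cell receptor complex that NK cells do not carry on their surface, held 10.7 CPM in vehicle replicate 7 and 5.63, 9.53 and 6.05 CPM in IL-33 replicates 3, 4 and 8, against at most 4.17 CPM elsewhere. None of the 11 T cell markers was at 0 in every tumor. Ptprc, the leukocyte antigen CD45, was between 161 and 306 CPM in the 4 tumors and between 11.6 and 144 CPM in the others. The summed macrophage markers reached 1578 to 2207 CPM in the 4 tumors and 560 to 1580 CPM in the others, and 2 of those 9 genes had the 4 tumors at the top. The part of other leukocytes in the levels of the receptor genes was not tested.

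The levels were also taken relative to Ptprc, which subtracts one and the same value, the group difference of Ptprc itself, from every gene. The difference of the mean log2 ratio to Ptprc, IL-33 minus vehicle, was 0.04 for Ncr1 (p = 0.920, two-sided exact permutation test), 0.19 for Klrk1 (p = 0.478) and -0.03 for Klrb1c (p = 0.948), against 0.57, 0.72 and 0.50 for the levels themselves. The same shift moved the other genes to values from -0.21 for Klrd1 and Tbx21 to -0.60 for Ulbp1, with exact p from 0.176 to 0.643. Ptprc itself had a log2 fold change of 0.49 ± 0.49 (SE, n = 8 and 8, adjusted p = 0.774 in edgeR). With IL-33 replicate 7 left out, the differences relative to Ptprc were -0.11 for Ncr1, 0.28 for Klrk1 and -0.08 for Klrb1c, with exact p of at least 0.303. The lowest Ptprc level of a vehicle tumor was 11.6 CPM, beside a vehicle median of 66.1 CPM. The ratios were not taken without vehicle replicate 4, and its part in them was not tested.

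Relations between genes were measured over log2(CPM + 0.5), with p from permutation adjusted over the 65 relations computed. Over all 16 tumors 51 passed an adjusted p of 0.05 by Pearson's r. Since the tumors fell into a set of 4 and a set of 12, relations were also measured within the 12. There 3 relations passed an adjusted p of 0.05 by Pearson's r and 5 by Spearman's rho, the first 3 among them. Klrk1 followed Ptprc (Pearson's r = 0.93, Spearman's rho = 0.94, permutation test, n = 12, adjusted p = 6.5e-04, from the smallest p the resamples can give, and 0.00195), Il15 followed Cd3e (r = 0.91, rho = 0.80, permutation test, adjusted p = 0.0013 and 0.040) and Tbx21 followed Cd3e (r = 0.85, rho = 0.92, permutation test, adjusted p = 0.0080 and 0.0026). The others by rho alone were Klrk1 with Cd3e and Il15 with Il15ra. Leaving out the 2 tumors farthest from the median of the first-named gene gave r of 0.81, 0.81 and 0.84. Among the 5 receptor genes the 10 values of r in the 12 tumors ran from -0.28 to 0.49 with a median of 0.07, and 0 passed. Ncr1 with Klrk1 gave r = 0.03 there. Over all 16 tumors these 10 values ran from 0.60 to 0.89 with a median of 0.81. All 10 passed by r (permutation test, adjusted p at most 0.019) and 7 by rho. Within the vehicle group they ran from 0.56 to 0.95, and within the IL-33 group from 0.76 to 0.92. Each group holds some of the 4 high tumors. With 12 tumors and a few reads for several of these genes, weak relations are not detectable, and the order of tumors below the top 4 differed from gene to gene. The 12 were set apart by the levels themselves, which narrows the range of the receptor genes within them.

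**Figure D4:**
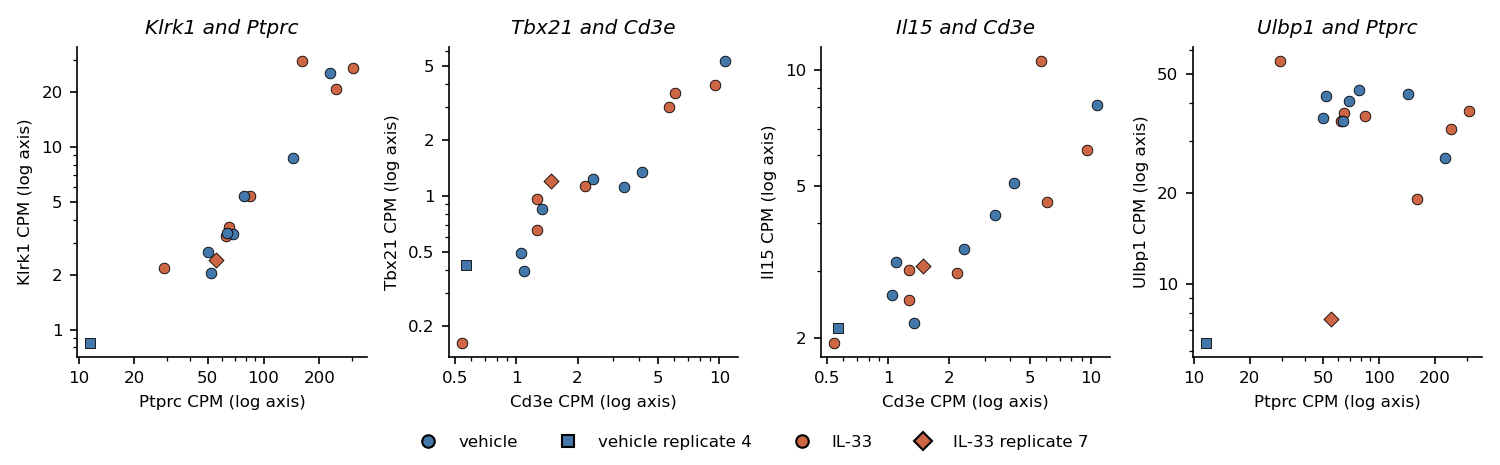
Level of Klrk1 and Ulbp1 against Ptprc and of Tbx21 and Il15 against Cd3e in each tumor, as CPM on log axes, by group. Klrk1, Tbx21 and Il15 lie higher where the leukocyte transcript is higher, while Ulbp1 has its lowest points, 6.37 and 7.64 CPM, at the square (vehicle replicate 4) and the diamond (IL-33 replicate 7).

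Il15 (ENSMUSG00000031712, chromosome 8:82331632-82403222, minus strand) ran from 2.12 to 8.12 CPM (median 3.28 CPM) in the vehicle tumors and from 1.95 to 10.5 CPM (median 3.05 CPM) in the IL-33 tumors. The highest levels were in IL-33 replicate 3, vehicle replicate 7 (8.12 CPM) and IL-33 replicate 4, which were also high for the receptors, and vehicle replicate 2 came before IL-33 replicate 8. The log2 fold change was 0.10 ± 0.36 (SE, n = 8 and 8, adjusted p = 0.960 in edgeR), with an interval from -0.66 to 0.86, and it was -0.24 without IL-33 replicate 3. Il15ra (ENSMUSG00000023206, chromosome 2:11705290-11734317, plus strand), which encodes the chain that presents IL-15, ran from 1.34 to 15.3 CPM (median 6.74 CPM) in the vehicle tumors and from 3.62 to 14.6 CPM (median 7.02 CPM) in the IL-33 tumors. Its lowest value was that of vehicle replicate 4, as for 40.5% of all genes tested. Its second highest, 14.6 CPM, was that of IL-33 replicate 7, in which none of the receptor genes was among the 4 highest. Without that tumor the median of the IL-33 tumors was 6.25 CPM, below that of the vehicle tumors. The log2 fold change of 0.13 ± 0.32 (SE, n = 8 and 8, adjusted p = 0.938 in edgeR) was 0.01 without IL-33 replicate 7 and -0.12 without both tumors that stood apart.

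The other chains of the IL-15 receptor also overlapped between the groups. Il2rb, the beta chain shared with IL-2, had the 4 tumors at the top, with 35.8 CPM in vehicle replicate 7, 28.6, 47.0 and 35.5 CPM in IL-33 replicates 3, 4 and 8, and at most 19.1 CPM elsewhere. Its log2 fold change was 0.38 ± 0.40 (SE, n = 8 and 8, adjusted p = 0.792 in edgeR), and that of Il2rg, the common gamma chain, was -0.25 ± 0.27 (adjusted p = 0.807). Of the 10 genes of the IL-15 receptor and its signaling, 2 had an unadjusted p under 0.05, both higher with IL-33, where 9.99% of all genes tested were higher and 1.17% lower, and 0 passed an adjusted p. They were Pim1, a kinase gene induced by STAT5 (0.59 ± 0.23, adjusted p = 0.418 in edgeR), and Cish, a feedback inhibitor of cytokine receptors (0.83 ± 0.37, adjusted p = 0.420). Cish held 33.8 CPM in IL-33 replicate 7 and no more than 8.07 CPM in the other 15 tumors, and without that tumor its change was 0.27 ± 0.18 (adjusted p = 0.964 in edgeR). Pim1 without it was 0.64 ± 0.24 (adjusted p = 0.964 in edgeR), with its top values in IL-33 replicates 6 and 5 at 76.1 and 62.0 CPM, neither of which was among the 4 highest for any receptor gene.

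Ulbp1 (ENSMUSG00000079685, chromosome 10:7440362-7473638, minus strand), which encodes the NKG2D ligand MULT1, showed another pattern. Its level ran from 6.37 to 44.4 CPM (median 38.2 CPM) in the vehicle tumors and from 7.64 to 55.2 CPM (median 35.5 CPM) in the IL-33 tumors. The lowest values were those of the tumors that stood apart, vehicle replicate 4 and IL-33 replicate 7, and among the other 14 tumors the lowest were IL-33 replicate 3 (19.2 CPM) and vehicle replicate 7 (26.3 CPM). The highest, 55.2 CPM in IL-33 replicate 6, was in the tumor lowest for Klre1, Tbx21 and Il15. The log2 fold change was -0.05 ± 0.35 (SE, n = 8 and 8, adjusted p = 0.979 in edgeR), and 0.11 ± 0.27 without IL-33 replicate 7. Ulbp1 has 6726 exon bases, and the median gene of over 6000 bases lay at -1.33 in vehicle replicate 4 on the log2 scale relative to the other tumors. The part of transcript length in its value there was not tested.

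The other NKG2D ligands of the mouse belong to the Raet1 and H60 families, of which Raet1d, Raet1e, H60b and H60c were analysed here. The families hold near-identical copies, so values of single genes are uncertain. For Raet1e the vehicle tumors held 4.20 to 7.42 CPM, those given IL-33 0.57 to 9.02 CPM. For Raet1d the ranges were 1.41 to 4.59 CPM and 1.20 to 4.97 CPM, with IL-33 replicate 7 the lowest of its group for both genes. H60b was at most 1.62 CPM in any tumor and also lowest in IL-33 replicate 7 within its group. The fitted changes of Raet1d, Raet1e and H60b lay between -0.07 and 0.00, with adjusted p of at least 0.977 in edgeR. H60c was the 1 ligand of 4 with an unadjusted p under 0.05 (higher, adjusted p = 0.418 in edgeR), where 9.99% of all genes tested were higher. It stood at 5.36 CPM in IL-33 replicate 7 and at most 0.11 CPM in the other 15 tumors, with 2 reads over the whole vehicle group. Without that tumor it did not reach 10 counts and was not tested.

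Among the other NK receptor genes, 22 of 24 were tested, and 1 was higher and 0 lower at an unadjusted p under 0.05. Of all genes tested 9.99% were higher and 1.17% lower. The median log2 fold change of the 22 was 0.32, beside 0.06 for all genes. The 1 higher gene was Klra8, of the Ly49 family, with 2 reads summed in the vehicle group against 14 with IL-33, and Ly49 genes are near-identical copies. Klrc1, which encodes the inhibitory partner NKG2A of CD94, held 9.60 CPM in vehicle replicate 7 and 3.11, 7.07 and 6.13 CPM in IL-33 replicates 3, 4 and 8, and at most 2.32 CPM elsewhere (log2 fold change 0.17 ± 0.60, adjusted p = 0.961 in edgeR). Of the 22 genes 7 had the 4 tumors at the top (31.8%). In the fit without IL-33 replicate 7, 3 were higher at an unadjusted p under 0.05, against 1.83% of all genes tested. They were Klra8, Klrb1f (1.19 ± 0.54) and the SLAM receptor gene Slamf7 (1.42 ± 0.67, adjusted p = 0.964 each in edgeR), the last pair named after their values had been seen.

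The adaptors and transcription factors gave few differences. Of 8 adaptor genes 0 passed an unadjusted p under 0.05, and Syk, a kinase of activating receptors, had the smallest p (0.55 ± 0.35, adjusted p = 0.607 in edgeR). Hcst, which encodes DAP10, the adaptor of NKG2D, was highest in vehicle replicate 4, the tumor that stood apart by gene length, at 1.63 CPM. Its log2 fold change was -0.23 ± 0.54 (adjusted p = 0.932 in edgeR). Tyrobp, which encodes DAP12 and is also a myeloid gene, spanned 26.6 to 107 CPM with vehicle, 19.8 to 111 CPM with IL-33 (-0.02 ± 0.38, adjusted p = 0.994 in edgeR). Of 9 transcription factor genes tested 1 was higher and 0 lower at an unadjusted p under 0.05, where 9.99% of all genes tested were higher and 1.17% lower. The 1 gene was Id2, an inhibitor of E proteins needed for innate lymphoid cells. Id2 held 21.4 to 41.2 CPM with vehicle, 21.8 to 77.0 CPM with IL-33 (0.59 ± 0.24, adjusted p = 0.418 in edgeR). Its highest tumors were IL-33 replicates 5, 6 and 7, at 77.0, 59.9 and 58.1 CPM, and not the 4 that were high for the receptors, and 0 of the 9 factor genes had those 4 at the top. The change of Id2 was 0.59 ± 0.25 without IL-33 replicate 7 (adjusted p = 0.964 in edgeR).

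Of 16 effector genes 0 passed an unadjusted p under 0.05, and 8 had the 4 tumors at the top. Gzmb, which encodes granzyme B, held 105 CPM in vehicle replicate 7 and 77.3, 132 and 118 CPM in IL-33 replicates 3, 4 and 8, and at most 42.6 CPM elsewhere (log2 fold change 0.40 ± 0.55, adjusted p = 0.856 in edgeR). Ifng, the interferon gamma gene, held 3.32 CPM in vehicle replicate 7 and 1.09, 2.10 and 1.32 CPM in those IL-33 tumors, and at most 0.92 CPM elsewhere (-0.05 ± 0.91, adjusted p = 0.993). Gzma, for granzyme A, spanned 10.8 to 46.6 CPM with vehicle and 5.07 to 66.6 CPM with IL-33 (0.17 ± 0.44, adjusted p = 0.938), and Prf1, for perforin, 4.24 to 35.3 CPM and 3.46 to 31.0 CPM (-0.16 ± 0.44, adjusted p = 0.943). The highest Prf1 value of the 16 was in vehicle replicate 6, which was not among the 4 for any receptor gene. That tumor also held 24.4 CPM of Gzmc, the effector gene with the smallest p (-1.09 ± 0.56, adjusted p = 0.489 in edgeR).

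Of 6 tested genes of other cytokines that activate NK cells 0 passed an unadjusted p under 0.05. The smallest p was that of Il21 (adjusted p = 0.721 in edgeR), on 3 reads with vehicle and 9 with IL-33. Of the 6, 4 had the same 4 tumors at the top (66.7%), namely Il12b, Il18, Il27 and Ebi3. Il18 held 12.2 CPM in vehicle replicate 7 and 14.5, 10.2 and 8.98 CPM in IL-33 replicates 3, 4 and 8, and at most 6.96 CPM in the other 12. The markers of innate lymphoid cells gave 1 of 10 genes higher, where 9.99% of all genes tested were higher. It was Il17rb (4.69 ± 1.65, adjusted p = 0.418 in edgeR), which was 26.7 CPM in IL-33 replicate 7 and at most 0.34 CPM elsewhere, and stood at -0.57 ± 0.87 without that tumor. In that fit 1 of the 10 was again higher, Il7r (0.77 ± 0.36, adjusted p = 0.964 in edgeR), against 1.83% of all genes tested. Without both tumors that stood apart 1 was higher, Areg (0.69 ± 0.27, adjusted p = 1.00), against 330 of 15744 genes. Il7r and Areg were named after their values had been seen. The T cell markers gave 0 of 11, with Cd28 the nearest (0.89 ± 0.57, adjusted p = 0.607 in edgeR), and Cd3e was at 0.13 ± 0.62 (adjusted p = 0.970). The macrophage markers gave 0 of 9, with Itgam the nearest (0.60 ± 0.37, adjusted p = 0.583 in edgeR), which was 0.74 ± 0.34 (adjusted p = 0.964) without IL-33 replicate 7. The female tract markers gave 17 of 18 higher, and 0 of the 11 that could be tested without that tumor.

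Per kilobase of exon, the median level was highest for Ulbp1 (5.67 CPM per kilobase in the vehicle tumors and 5.28 in the IL-33 tumors), followed in the vehicle tumors by Il15ra (1.52), Il15 (1.45), Eomes (0.98), Ncr1 (0.92), Klrd1 (0.86), Klrk1 (0.47), Tbx21 (0.39), Klrb1c (0.15) and Klre1 (0.13). In the IL-33 tumors Ncr1 stood at 1.61, Il15ra at 1.58, Il15 at 1.35, Klrd1 at 1.05, Eomes at 1.03, Klrk1 at 0.63, Tbx21 at 0.47, Klrb1c at 0.25 and Klre1 at 0.13. Without IL-33 replicate 7 Il15ra stood at 1.41, Il15 at 1.33, Ncr1 at 1.27, Eomes at 1.04 and Klrd1 at 0.80. The place of Ncr1 above Il15ra and Il15 thus rested on that tumor. Neighbors in the orders with all tumors overlapped in their range over tumors in both groups. In the vehicle group the overlap of Ulbp1 with Il15ra rested on replicate 4, and without it every vehicle tumor had more Ulbp1 per kilobase than any had Il15ra. Among the IL-33 tumors Ulbp1 overlapped with Ncr1 also without replicate 7, but with Il15ra only through that tumor.

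The genes whose levels were most like those of Ncr1 over the 16 tumors, by Pearson's r of log2(CPM + 0.5) among 13109 genes with a mean of at least 1 CPM, were Treml2 (r = 0.93), Cd226 (0.91), Skap1 (0.91), Cxcr3 (0.90) and Cfb (0.90). Cd226 encodes an activating receptor of NK and T cells, and Cxcr3 a chemokine receptor of type 1 lymphocytes. The closest to Il15 were Srsf3 (r = 0.97), Nasp (0.96), Snrnp40 (0.95), Dusp12 (0.95) and Stard3nl (0.95), and the closest to Ulbp1 were Abl2, E2f8, Selenoi, Cav2 and Tarsl2 (0.97 each). These values are descriptions over 16 tumors that differ in depth and, for Ncr1, rest on the same 4 high tumors. For Ulbp1 they take in the tumors that stood apart, its lowest, and were not taken without both. All these values of r were between 0.90 and 0.97 without IL-33 replicate 7.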

How the data were processed

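Polyadenylated RNA of 16 tumors was sequenced, and the authors deposited for each tumor raw read counts per gene, without normalization. The submitters' processing notes name HISAT2, featureCounts and mm10, and versions, annotation release and the use of strand are not given in the sources used here. All 16 count columns were used. Identifiers were paired with symbols and positions from GENCODE M21 (GRCm38), which named 22255 of 22298 genes, and any pair of libraries differed by more than sampling noise (chi-square per degree of freedom at least 8.79). CPM are counts relative to the total of the tumor. Counts were tested with edgeR 4.0.16 (R 4.3.3; TMM, glmQLFit, glmQLFTest, Benjamini-Hochberg) over the 16817 genes with at least 10 counts, after the fit was tested on simulated data. Members were compared singly on log2(CPM + 0.5) by an exact permutation test, two-sided, over all divisions of the tumors (smallest p 0.000155), and relations by permutation with 100000 resamples. The members and lists were chosen with earlier results of these data known. Alternatives were DESeq2 1.42.0, upper-quartile scaling, filterByExpr, no filter, limma 3.58.1 voom with quality weights, a block for the replicate number, a pseudocount of 2, and each tumor left out. The genes named are the 10 members, a set of partners, from each list the genes with an unadjusted p under 0.05 or else the gene with the smallest p, and the 5 genes most like Ncr1, Il15 and Ulbp1.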

Additional observations from a re-analysis of the deposited data

Results flagged for a closer look

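In 5 of the 20 sets of 8 values (10 genes in each of 2 groups), 1 tumor lay apart from the rest of its group. Its gap in CPM passed Dixon's 95% critical value for 8 values. That limit assumes normally distributed values, which CPM need not be, so its rate of about 1 in 20 sets by chance may not hold. The gaps were not taken on the log scale of the exact tests, where other tumors could be flagged. In each of the 5 sets the flagged tumor was vehicle replicate 7, the highest of the vehicle tumors. It held 6.12 CPM of Ncr1, with a gap to the next tumor of 0.772 of the range, 25.3 CPM of Klrk1 (0.679), 5.15 CPM of Klrd1 (0.782), 2.17 CPM of Klre1 (0.711) and 5.32 CPM of Tbx21 (0.806). The 5 genes share this tumor and are not independent of each other. No IL-33 tumor passed this limit for any of the 10 genes.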

How the results depend on the processing

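At an adjusted p under 0.05, 0 of the 10 genes passed under every alternative run. Over all genes that count was 0 except in DESeq2 without IL-33 replicate 7, with 1 gene. At an unadjusted p under 0.05, 1680 genes were higher and 196 lower in the main fit (11.2% of 16817 genes). The counts were 498 and 142 with filterByExpr, 424 and 267 with DESeq2 (4.11% of 16817), and 522 and 444 with voom quality weights. They were 330 and 329 of 15744 genes without both tumors that stood apart, and 286 and 392 in DESeq2 without IL-33 replicate 7. Leaving out 1 tumor gave 289 to 1902 higher, the fewest without IL-33 replicate 7, and 111 to 362 lower. Of the 10 genes, 1 passed an unadjusted p in each of filterByExpr, DESeq2, voom, DESeq2 without IL-33 replicate 7 and the fit without both tumors. These stand beside the counts over all genes just given, and filterByExpr did not test Klre1. With 1 tumor left out 0 to 3 passed (3 without vehicle replicate 7, the highest vehicle tumor for them, where 11.4% of all genes passed). The gene was Klrb1c in each of these single-gene cases.

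With 1 tumor left out the log2 fold change lay between 0.54 and 1.36 for Ncr1, 0.47 and 1.59 for Klrk1, 0.62 and 1.03 for Klrb1c, 0.10 and 0.83 for Klrd1, -0.44 and 0.36 for Klre1, -0.094 and 0.18 for Eomes, 0.09 and 1.02 for Tbx21, -0.24 and 0.32 for Il15, -0.013 and 0.38 for Il15ra, and -0.25 and 0.11 for Ulbp1. The direction turned for Klre1 with voom (0.43) and without both tumors (0.10), for Il15ra without both tumors (-0.12) and for Ulbp1 in DESeq2 without IL-33 replicate 7 (0.11), and the cause was not tested. Leaving out IL-33 replicate 7, the exact test turned for Eomes (0.13) and Ulbp1 (0.20), and the value relative to Ptprc for Ncr1 (-0.11). Ncr1, Klrk1, Klrb1c, Klrd1 and Tbx21 kept their direction in every fit run. Of the 65 relations, 51 passed by Pearson's r over 16 tumors and 3 in the 12 tumors outside the 4 highest, an alternative chosen after seeing the data, as was leaving out both tumors.

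Equal replicate numbers did not pair the tumors: deviations of same-numbered tumors correlated between -0.36 and 0.40, and 2 of 8 vehicle tumors correlated best with their own number. With the replicate block 246 genes were higher and 72 lower at an unadjusted p under 0.05, and Eomes stood at -0.12. Klre1, on 89 and 96 reads in the groups, did not pass filterByExpr, and depth limits it and Klrb1c most.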
